A study of Mus musculus with 12 samples.

Results

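The mitochondrial carrier family was followed through RNA bound to RPL10A ribosomes and unbound RNA of the mouse choroid plexus (ChP). Its members were the 47 genes of the table whose symbol begins with Slc25a followed by a digit, together with Ucp1, Ucp2 and Ucp3, which made 50 of the 24327 genes kept. Carriers of this family sit mostly in the inner mitochondrial membrane and exchange nucleotides, phosphate, carboxylates, amino acids and cofactors between the cytosol and the matrix. The ADP/ATP and phosphate carriers feed ATP synthesis, the aspartate-glutamate carriers serve the malate-aspartate shuttle, and uncoupling proteins let protons or metabolites cross the membrane. The ChP epithelium, which secretes cerebrospinal fluid, is rich in mitochondria.

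Tissue came from the lateral ventricle (LV) ChP of male Foxj1-Cre+/-; floxed EGFP-L10a+/- mice, heterozygous for both transgenes, aged 8 weeks by the methods and 60 days by the sample labels. Foxj1-Cre recombines in ciliated cells, the ChP epithelium among them, where the ribosomal protein RPL10A then carries EGFP and can be pulled down. TRAP libraries hold the RNA that came down with RPL10A, whereas supernatant libraries hold the RNA left behind, which can come from any cell of the tissue. The 4 groups were 9 a.m. TRAP, 9 p.m. TRAP, 9 a.m. supernatant and 9 p.m. supernatant, with 3 libraries each and tissue of 3 pooled mice in a library, collected 2 h after lights on or 2 h after lights off in a cycle of 12 h light and 12 h dark with free access to food. Every group carried both transgenes, and Cre-negative controls were not analysed here.

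Expression was read as FPKM, the reads of a gene scaled by transcript length and by the total mapped, which compares genes per length and is relative within a library. Depth is unknown, so where no signal was recorded the gene is said to be listed at 0. Markers of ChP epithelium were above 0 in all 4 groups, at 38363 to 71723 summed FPKM per library over 10 markers. From 6639 to 10540 genes lay above 1 FPKM in a library, the lowest number in 9 a.m. TRAP replicate 3, in which 107 of 2940 abundant genes were listed at 0 against 0 to 53 in the others. Hepatocyte markers, genes of another tissue, summed to 674 FPKM in that library and to 0.636 to 147 in the other 11. The 674 came from Apoa2 (365), Alb (171), Hp (108) and, at a lower level, Apoa1. The other markers of that list, Serpina1a, Fga, Cyp3a11 and Cps1, were listed at 0 there. Bulk RNA cannot tell fewer cells of a type from less RNA per cell.

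Reads of 50 nt can be told apart only between genes that differ within 50 bases, so the sequences were compared first. No member shared any 50-base stretch of its GENCODE M21 transcripts with another member. Slc25a4 and Slc25a5, the ADP/ATP carriers that exchange matrix ATP for cytosolic ADP, have coding sequences of 897 bases each that are 77.5% identical, and their longest common run is 20 bases. It lies within positions 292 to 371, counted from the A of the start codon, shown here 5′ to 3′. The 18 differing bases are in capitals and separate the 2 genes on both sides of that run.
Slc25a4: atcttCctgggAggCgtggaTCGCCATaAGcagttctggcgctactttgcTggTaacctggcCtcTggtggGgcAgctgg
Slc25a5: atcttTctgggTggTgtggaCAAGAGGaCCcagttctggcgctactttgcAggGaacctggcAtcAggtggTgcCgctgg

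Slc25a5 is less certain than the other abundant members, because 33.8% of its 50-base stretches recur in 9 pseudogenes. The closest was the processed pseudogene Gm5560 on chromosome 5 from 97264828 to 97265719 (mm10, plus strand), which shares 21.1% of them and a run of 145 bases. The run lies within positions 648 to 852 of the Slc25a5 coding sequence, and the 3 bases that differ there are in capitals.
Slc25a5: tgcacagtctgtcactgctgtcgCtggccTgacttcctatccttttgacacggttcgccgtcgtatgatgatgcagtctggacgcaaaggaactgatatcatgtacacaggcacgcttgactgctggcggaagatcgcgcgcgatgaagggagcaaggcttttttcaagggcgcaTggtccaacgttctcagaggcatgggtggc
Gm5560: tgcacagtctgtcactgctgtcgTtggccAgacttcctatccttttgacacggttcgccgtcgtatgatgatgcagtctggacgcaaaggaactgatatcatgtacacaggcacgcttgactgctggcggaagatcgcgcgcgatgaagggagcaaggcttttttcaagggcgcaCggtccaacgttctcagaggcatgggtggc
Slc25a4 and Slc25a39 shared no such stretch with any other gene, Slc25a3 shared 1.5%, Ucp2 3.53% and Slc25a23 4.13%. Among weaker members, Slc25a35 shared 25.1% with Rangrf and Slc25a33 12.6% with the antisense gene Gm13068. No source used here gives the strand setting of the counting, so it is unknown whether reads from the shared stretches of these 2 pairs were told apart.

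Levels within the family ranged from abundant to not detected. Averaged over the 12 libraries, 6 members lay above 100 FPKM, 2 between 50 and 100, 12 between 10 and 50, 17 between 1 and 10, and 6 at or under 1 but not at 0. The remaining 7, Slc25a2, Slc25a21, Slc25a34, Slc25a41, Slc25a43, Slc25a48 and Ucp3, were listed at 0 in every library. In all, 21 members were above 0 in every library. The 6 abundant members held a median of 74.4% of the family's summed FPKM per library, with a range of 59.6% to 84.2%.

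**Figure D1:**
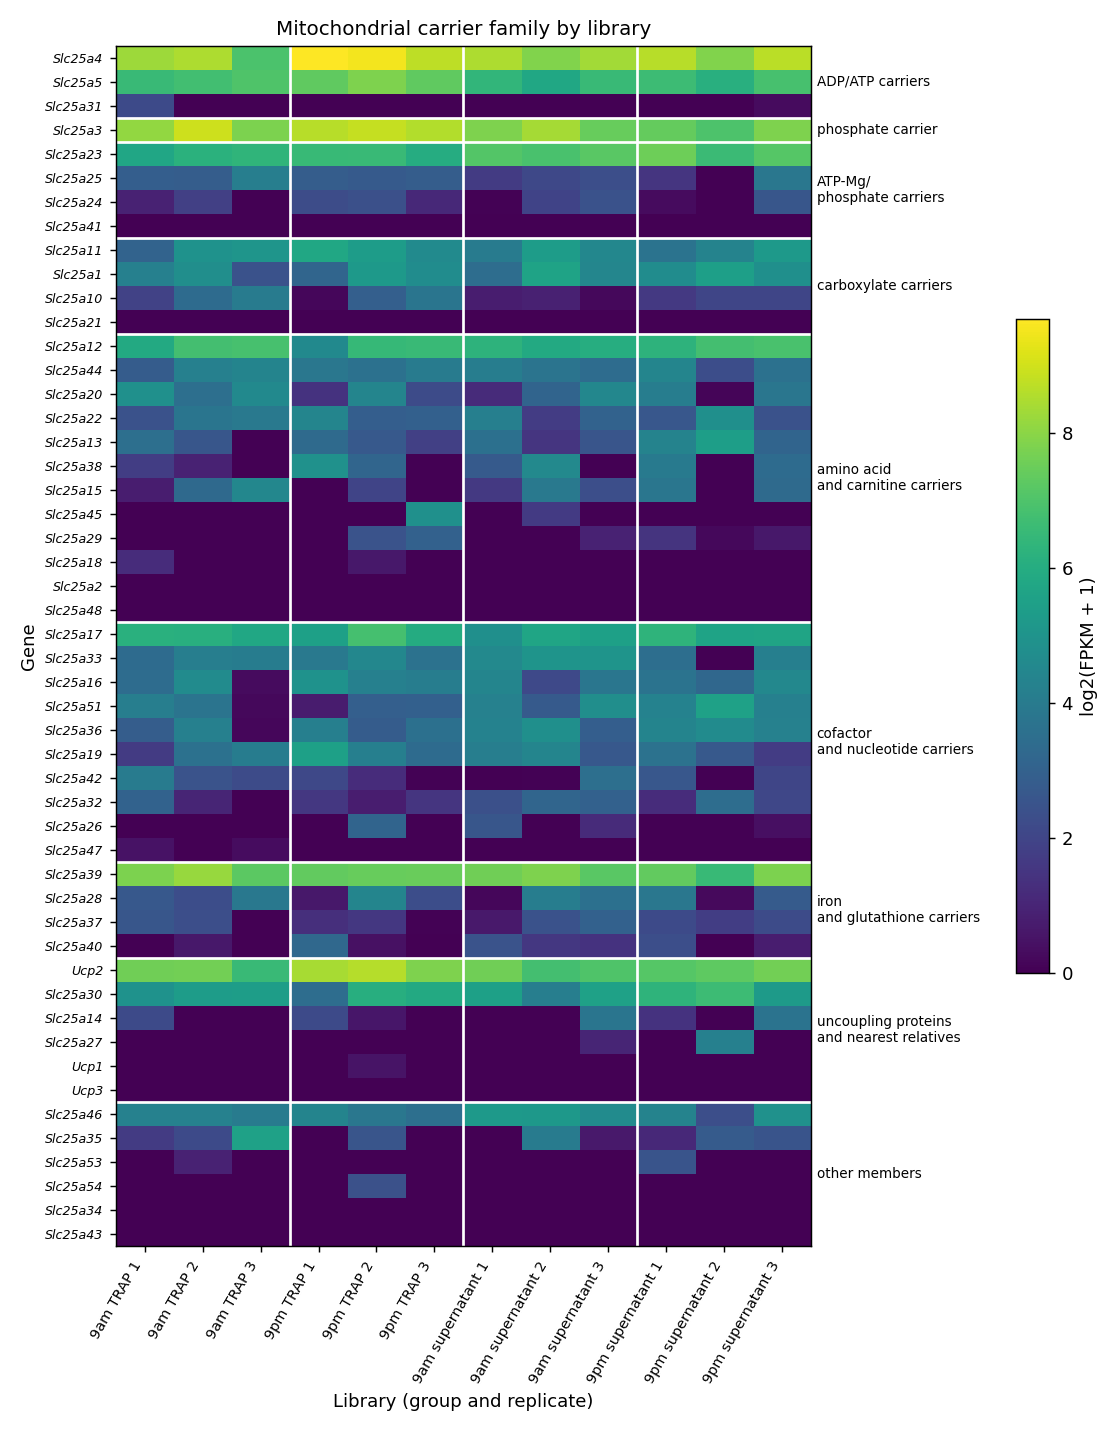
Heat map of log2(FPKM + 1) for the 50 members (rows, ordered by carrier group and by mean within it) in the 12 libraries (columns, 3 per group). The bright rows are the 6 members above 100 FPKM, and 7 members are dark in every library.

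Slc25a4, on chromosome 8 from 46206797 to 46211284 (mm10, minus strand), had the highest mean of the family over the 12 libraries, 392 FPKM, above 99.4% of the genes that were not at 0 throughout. Slc25a3, the phosphate carrier, which brings phosphate into the matrix for ATP synthesis, followed at 287 (chromosome 10, 91116574 to 91124059), and in 9 a.m. TRAP it averaged more than Slc25a4, at 326 against 261. Next came Ucp2, an uncoupling protein family member found in many tissues, at 196 (chromosome 7, 100493337 to 100502020). Slc25a39, which takes glutathione into the matrix, averaged 184 (chromosome 11, 102402985 to 102407946). The second ADP/ATP carrier Slc25a5 averaged 115 (chromosome X, 36795651 to 36798807), and Slc25a23, a calcium-regulated carrier that exchanges ATP-Mg for phosphate, averaged 106 (chromosome 17, 57043711 to 57059863). Within groups, the coefficient of variation of these 6 had a median of 27.0% and reached 47.8%. The order of the means did not hold in every group. Slc25a5 lay above Slc25a23 in all 6 TRAP libraries and below it in all 6 supernatant libraries. Ucp2 lay wholly above Slc25a39 in 9 p.m. TRAP, at 223 to 390 against 164 to 178, and overlapped with it in range in the other groups.

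Below them, Slc25a12, an aspartate-glutamate carrier of the malate-aspartate shuttle, averaged 82.3 FPKM, and Slc25a17, which carries cofactors into peroxisomes, 59.0. Slc25a30, a relative of the uncoupling proteins, averaged 47.0, and Slc25a11, the oxoglutarate carrier of the same shuttle, 27.5. The citrate carrier Slc25a1 was at 24.5 and Slc25a46, an outer membrane protein that shapes mitochondria, at 20.3. Spread grew as level fell. The median coefficient of variation was 58.2% for members between 10 and 50 FPKM and 101% for those between 1 and 10. Of the 17 members between 1 and 10 FPKM, taken in 4 groups each (68 pairs of member and group), 19 pairs held a library at 0 beside another above 5 FPKM. The same occurred in 1 of 48 pairs between 10 and 50 FPKM and in none of the 32 pairs above 50.

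Within several carrier groups, 1 member held most of the signal. Of the ADP/ATP carriers, Slc25a31, the form of the testis, was above 0 in 2 libraries only, at 3.48 and 0.202 FPKM. Among the aspartate-glutamate carriers, Slc25a12 lay above Slc25a13 in every library, at 82.3 against 9.96 on average. Ucp1, the uncoupling protein of brown fat, was listed at 0 in 11 libraries and at 0.424 in 9 p.m. TRAP replicate 2, while Ucp3, the form of muscle, was listed at 0 throughout. Slc25a39 and its close relative Slc25a40 averaged 184 and 1.86. The iron carriers Slc25a28 and Slc25a37 averaged 7.86 and 2.83.

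Neighbouring members on a chromosome differed widely in level. Ucp3 ends 6904 bases before Ucp2 on chromosome 7, and the pair stood at 0 and 196 FPKM. On chromosome 17, Slc25a41 lies 2056 bases from Slc25a23 at 0 against 106. Slc25a43 and Slc25a5, 18448 bases apart on the X chromosome, stood at 0 and 115. The other 2 neighbouring pairs were both weak, Slc25a54 beside Slc25a24 at 0.362 and 2.08, and Slc25a47 beside Slc25a29 at 0.0506 and 1.24, the latter 162 bases apart.

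Whether ribosome-bound carrier mRNA differed between the light and dark phases was asked first. In TRAP, Slc25a4, Ucp2 and Slc25a5 had all 3 libraries of 9 p.m. above all 3 of 9 a.m., while no member passed the test. FPKM of Slc25a4 was 305, 359 and 120 in replicates 1 to 3 of 9 a.m. TRAP and 820, 738 and 420 in those of 9 p.m. TRAP. The lowest value at 9 p.m. lay above the highest at 9 a.m., and 9 a.m. replicate 3 lay far below the others. Means were 261 ± 125 (SD, n = 3) and 659 ± 211 (SD, n = 3), a log2 fold change of 1.42 ± 0.44 (SE). By limma the Benjamini-Hochberg adjusted p was 0.941. Leaving out 9 a.m. TRAP replicate 3 gave a log2 fold change of 0.94, and the unadjusted p stayed under 0.05 with any 1 library left out.

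TRAP values of Ucp2 were 191, 194 and 92.7 FPKM in the morning group, against 337, 390 and 223 in the evening group. The groups did not overlap in FPKM as deposited, and replicate 3 was the lowest at both times. Its log2 fold change was 1.02 ± 0.38 (SE; limma adjusted p = 0.941). It was 0.68 when 9 a.m. TRAP replicate 3 was left out, and leaving out that library or replicate 1 or 2 of 9 p.m. TRAP took the unadjusted p above 0.05. For Slc25a5, values of 92.3, 107 and 130 in the morning against 159, 222 and 161 in the evening gave 0.71 ± 0.33 (SE; limma adjusted p = 0.941). Here 9 a.m. replicate 3 was the highest of its group, unlike in Slc25a4 and Ucp2. Rescaling to equal sums over coding genes gave smaller log2 fold changes, 1.18 for Slc25a4, 0.78 for Ucp2 and 0.47 for Slc25a5. By limma their unadjusted p was then 0.011, 0.052 and 0.18.

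The phosphate carrier Slc25a3 overlapped between times in TRAP, at 275, 488 and 216 FPKM against 394, 450 and 377, with a log2 fold change of 0.40 ± 0.35 (SE). Slc25a39 was at 215, 290 and 151 against 164, 172 and 178, a log2 fold change of -0.30 ± 0.34 (SE). Slc25a12 was at 58.5, 109 and 115 against 23.1, 89.2 and 92.7, and replicate 1 was the lowest at both times. Slc25a42, a carrier of coenzyme A, was the 1 member with all libraries of 9 p.m. below those of 9 a.m., at 15.5, 4.52 and 3.63 against 3.27, 1.34 and 0.0446 (limma adjusted p = 0.941).

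**Figure D2:**
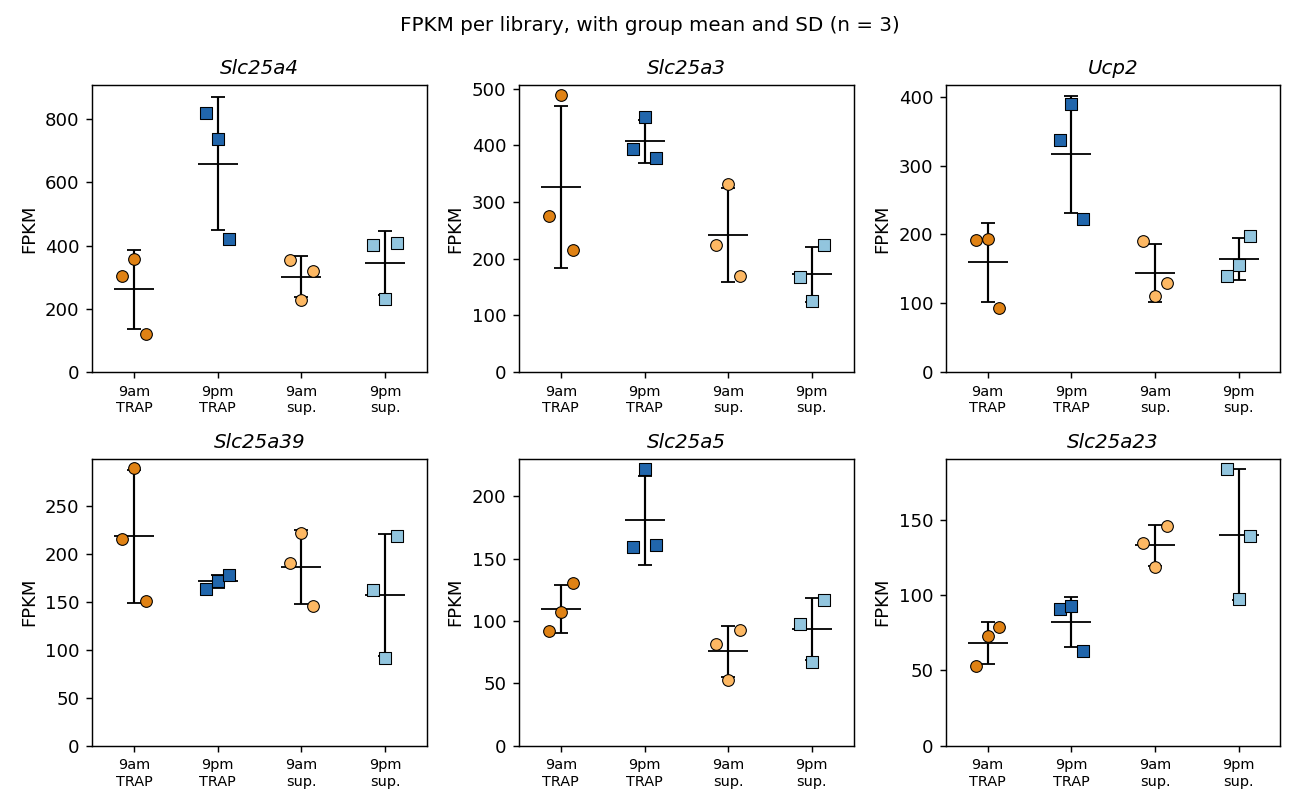
FPKM of the 6 most abundant members in each library (points, 3 per group) with the group mean (horizontal line) and SD (error bar). In Slc25a4, Ucp2 and Slc25a5 all 9 p.m. TRAP points lie above all other groups, and in Slc25a23 all TRAP points lie below all supernatant points.

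Of the 36 members tested in TRAP between times, limma called 0 (adjusted p under 0.05 with a log2 fold change beyond 0.4 in either direction), against 0% of all 10563 genes tested. At an unadjusted p under 0.05 there were 2 members, Slc25a4 and Ucp2, beside 3.96% of all genes. The 4 members without overlap stand beside 8.63% of all genes. The median log2 fold change of the members was 0.17 and that of all genes 0.16. At 9 p.m. 22 members were higher and 14 lower (61.1% higher, against 56.9% of all genes). Among the 22, Slc25a26, Slc25a29 and Slc25a45 were at 0 in every 9 a.m. TRAP library. They passed the filter only through 9 p.m. TRAP, so their direction was fixed. The same held for Slc25a40, also among the 22, at a mean of 0.176 FPKM in 9 a.m. TRAP. Among the 14 lower, Slc25a15, at a mean of 0.971 in 9 p.m. TRAP, passed only through 9 a.m. TRAP. After quantile normalization or rescaling to equal sums over coding genes the split was 18 to 18, with a median of the members at 0.01 and -0.03 and of all genes at -0.02 and -0.04. In the same libraries, epithelial markers summed to 54084 to 71723 FPKM at 9 p.m. and to 38363 to 53073 at 9 a.m., with none at 0. Ttr (32933 to 51514 against 20922 to 31302) and Foxj1 (72.7 to 88.2 against 37.9 to 62.4) were higher at 9 p.m. without overlap. Kl was lower without overlap (411 to 467 against 503 to 628), and the other markers, Enpp2 among them, overlapped. The part of these markers in the values of Slc25a4, Ucp2 and Slc25a5 was not tested.

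By carrier group, both ADP/ATP carriers tested were higher at 9 p.m. in TRAP, with a median log2 fold change of 1.06. Of 9 amino acid and carnitine carriers 6 were higher and 3 lower (median 0.04), and of 9 cofactor and nucleotide carriers also 6 and 3 (median 0.14). Among those higher, the filter fixed the direction of Slc25a29 and Slc25a45 in the former group and of Slc25a26 in the latter. It also fixed that of Slc25a15, among the 3 lower of the former group. Iron and glutathione carriers had 1 higher and 3 lower (median -0.40). The 1 higher was Slc25a40, whose direction the filter fixed. Carboxylate carriers had 2 higher and 1 lower (median 0.55), led by Slc25a11 at 0.90 ± 0.65 (SE), whose libraries overlapped. No group held a called member.

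In unbound RNA the same members did not separate by time. Slc25a4 stood at 355, 229 and 321 FPKM in the 9 a.m. supernatant and at 401, 230 and 408 in the 9 p.m. supernatant, a log2 fold change of 0.18 ± 0.31 (SE). Replicate 2 was the lowest at both times and the groups overlapped. Ucp2 was at 191, 110 and 129 against 140, 156 and 198 (0.22 ± 0.31, SE), and Slc25a5 at 81.7, 53.0 and 92.5 against 97.5, 67.4 and 117 (0.31 ± 0.37, SE). Slc25a3 was at 225, 333 and 170 against 168, 126 and 223 (-0.47 ± 0.34, SE).

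A few other carriers had supernatant libraries without overlap between times. Slc25a33, a pyrimidine nucleotide carrier, had 22.8, 31.1 and 31.5 FPKM in the morning against 10.2, 0 and 17.1 in the evening. The log2 fold change was -2.31 ± 1.004 (SE; limma adjusted p = 0.970). It was -1.03 without 9 p.m. supernatant replicate 2, the library listed at 0, and leaving out that library or any 1 of the 9 a.m. libraries took the unadjusted p above 0.05. Slc25a12 was at 75.0, 58.3 and 64.1 against 76.1, 110 and 117, so that 9 p.m. replicate 1 lay just above 9 a.m. replicate 1. The dicarboxylate carrier Slc25a10 was at 0.709, 0.851 and 0.147 against 2.06, 3.03 and 3.10. Its 9 a.m. mean was 0.569, so it passed the filter of a mean FPKM above 1 only through 9 p.m. and its direction was fixed.

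Among 35 members tested in the supernatant, limma called 0, against 0.00903% of 11075 genes, and 1 member had an unadjusted p under 0.05, against 3.28%. The 3 members without overlap stand beside 8.70% of all genes. Members were higher at 9 p.m. in 20 cases and lower in 15 (57.1% higher, against 51.8% of all genes), with a median log2 fold change of 0.03 beside 0.03 for all genes. The filter fixed the direction of Slc25a10 and Slc25a27, among the higher, at means of 0.569 and 0.336 at 9 a.m. It also fixed that of Slc25a26, among the lower, at 0.105 at 9 p.m. Under quantile normalization the split was 16 to 19. The 4 erythroid markers found summed to 0.0811 to 3.64 FPKM at 9 a.m. and 12.8 to 106 at 9 p.m. The difference lay in Hbb-bs, at 1.09, 0 and 0 against 41.8, 43.9 and 11.3, and in Hba-a2, at 62.3 in 9 p.m. replicate 2. Alas2 did not rise, at 0, 0.0811 and 3.64 against 0, 0 and 1.51. The part of these markers in the values of the carriers was not tested. Slc25a37, the iron carrier of red cell precursors, stood at 0.6003, 4.40 and 7.03 against 3.51, 2.41 and 3.58, with overlap.

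The difference between the changes in bound and unbound RNA was tested in 1 fit of the 12 libraries as the interaction between time and fraction. Among the 6 members above 100 FPKM it was widest for Slc25a4, at 1.24 ± 0.58 (SE) on the log2 scale, and the next member by level, Slc25a12, gave -1.23 ± 0.69 (SE). For Slc25a4 the limma adjusted p was 0.988, and with same-numbered TRAP and supernatant libraries as a block, or with any 1 of 6 libraries left out, 9 a.m. TRAP replicate 3 among them (0.76), it was not at an unadjusted p under 0.05. Of 37 members limma called 0, against 0.00896% of 11156 genes, and 1 had an unadjusted p under 0.05, against 3.85%. The median log2 difference was 0.24 for members and 0.11 for all genes. These medians were 0.07 and -0.05 after quantile normalization, and -0.02 and -0.09 after rescaling to coding genes. Thus the contrast between a separated TRAP comparison and an overlapping supernatant comparison of Slc25a4 did not itself pass the test. Slc25a3 gave 0.87 ± 0.49 (SE), Ucp2 0.81 ± 0.51, and Slc25a5 0.40 ± 0.48.

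Bound and unbound RNA were then compared at each time, to ask which carrier mRNAs were more or less represented on RPL10A ribosomes. At 9 a.m., Slc25a23 had 52.7, 72.6 and 79.0 FPKM in TRAP against 135, 118 and 146 in unbound RNA. All TRAP libraries lay below all supernatant libraries, at means of 68.1 ± 13.8 and 133 ± 13.7 (SD, n = 3). The log2 fold change was -0.97 ± 0.35 (SE; limma adjusted p = 0.886). Its unadjusted p was above 0.05 when replicate 1 of TRAP or replicate 3 of the supernatant was left out. Slc25a46 was at 17.9, 18.0 and 15.4 in TRAP against 36.8, 35.0 and 24.6, and Slc25a33 at 9.45, 16.8 and 15.8 against 22.8, 31.1 and 31.5, both without overlap. Slc25a40 was also lower without overlap, at 0 to 0.528 against 1.66 to 4.51. With a mean of 0.176 in TRAP, it passed the filter only through the supernatant, so its direction was fixed.

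Higher without overlap in TRAP at 9 a.m. were Slc25a17, at 70.6, 67.9 and 54.2 against 27.1, 50.9 and 43.8, and Slc25a25, an ATP-Mg/phosphate carrier, at 6.44, 6.26 and 16.8 against 2.19, 3.31 and 4.03. The third was Slc25a10, at 2.75, 9.44 and 15.1 against 0.709, 0.851 and 0.147 (log2 fold change 2.48 ± 1.17, SE; limma adjusted p = 0.886). Slc25a10 passed the filter only through TRAP, so its direction was fixed. Slc25a4, Slc25a3, Ucp2 and Slc25a5 overlapped between fractions at 9 a.m. Of 34 members limma called 0, against 0.0463% of 10796 genes. An unadjusted p under 0.05 was found for 1 member, against 4.50%, and the 7 members without overlap stand beside 10.1%. Among the 7 are Slc25a40 and Slc25a10, whose direction the filter fixed. The split was 16 higher and 18 lower (47.1% higher, against 41.8% of all genes). The median log2 fold change was -0.30 beside -0.20 for all genes, and these were -0.11 and -0.03 after quantile normalization. Of 9 cofactor and nucleotide carriers, 7 were lower in TRAP, with a median of -0.998, beside 6280 of all 10796 genes lower. Among the 7, Slc25a26 was at 0 in every 9 a.m. TRAP library and passed the filter only through the supernatant, so its direction was fixed. None of the 9 had an unadjusted p under 0.05 by limma.

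At 9 p.m. the phosphate carrier, both ADP/ATP carriers and Ucp2 stood apart between fractions. Slc25a3 had 394, 450 and 377 FPKM in TRAP against 168, 126 and 223 in unbound RNA, with means of 407 ± 38.2 and 173 ± 49.0 (SD, n = 3). Its lowest TRAP library lay well above its highest supernatant library, with a log2 fold change of 1.27 ± 0.30 (SE; limma adjusted p = 0.656), the smallest adjusted p of the family in this comparison. Slc25a4, at 820, 738 and 420 against 401, 230 and 408, gave 0.92 ± 0.35 (SE). Here TRAP replicate 3 lay only just above the supernatant. Ucp2 gave 0.92 ± 0.31 (SE) and Slc25a5 0.95 ± 0.33 (SE), with adjusted p = 0.818 for these 3 by limma. All 3 passed above an unadjusted p of 0.05 when 9 p.m. TRAP replicate 2 was left out, and Slc25a4 also without TRAP replicate 1 or supernatant replicate 2, whereas Slc25a3 stayed below it with any 1 library left out.

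Lower in TRAP at 9 p.m. was Slc25a51, the carrier of NAD, at 0.649, 6.66 and 6.85 FPKM against 18.6, 45.7 and 17.7. The groups did not overlap, and the log2 fold change was -2.48 ± 0.86 (SE; limma adjusted p = 0.818). Its unadjusted p was above 0.05 without 9 p.m. supernatant replicate 2. Slc25a23 again lay below the supernatant in every library, at 90.9, 92.7 and 63.1 against 184, 97.2 and 139, although TRAP replicate 2 and supernatant replicate 2 were close. The pyrimidine nucleotide carrier Slc25a36 was at 17.2, 6.02 and 10.99 against 19.5, 24.5 and 17.9. Slc25a37 was at 1.46, 1.98 and 0.0335 against 3.51, 2.41 and 3.58. In the same comparison erythroid markers summed to at most 0.0100 in TRAP and to 12.8 to 106 in the supernatant, with Hbb-bs there at 41.8, 43.9 and 11.3. The part of these markers in the value of Slc25a37 was not tested.

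Of 37 members tested between fractions at 9 p.m., limma called 0, against 0.0275% of 10924 genes. An unadjusted p under 0.05 was found for 5 members, against 5.68%, and 8 members did not overlap, against 11.9%. Members were higher in TRAP in 22 cases and lower in 15 (59.5% higher, against 47.3% of all genes). At 9 p.m. Slc25a45 was at 0 in every supernatant library and Slc25a27 in every TRAP library. Each passed the filter only through the other fraction, so their direction was fixed. The same held for Slc25a26 and Slc25a29, at means of 0.105 and 0.812 in the supernatant, and for Slc25a15, at 0.971 in TRAP. The median log2 fold change of the members was 0.21 beside -0.07 for all genes, and rescaling to coding genes made these medians 0.04 and -0.23. Leaving out 9 p.m. supernatant replicate 2, in which 23 members were listed at 0, turned the median to -0.24. The medians of the groups ran from 1.27 for the phosphate carrier to -0.86 for the 4 uncoupling proteins and relatives tested. The ADP/ATP carriers had 0.94 and the ATP-Mg/phosphate carriers 0.95. The latter was the value of the weak Slc25a24 (0.95 ± 1.09, SE), beside the weak Slc25a25 (1.05 ± 1.15, SE). The abundant Slc25a23 of that group was lower in TRAP (-0.73 ± 0.35, SE). Of the 4 uncoupling proteins and relatives, Ucp2 alone was higher. Those lower were Slc25a30 (-0.94), Slc25a14 (-0.77), listed at 0 in 6 of the 12 libraries, and Slc25a27, whose direction was fixed.

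Over both times together, Slc25a23 was the 1 member whose 6 TRAP libraries, at 52.7 to 92.7 FPKM, all lay below the 6 supernatant libraries, at 97.2 to 184. Separation in either direction was found for 1.03% of all 11156 genes, 26 of them higher and 89 lower in TRAP. The means were 75.2 ± 15.7 and 136 ± 29.0 (SD, n = 6), and the log2 fold change was -0.85 ± 0.23 (SE; limma adjusted p = 0.292). It lay between -0.97 and -0.76 when any 1 library was left out. Slc25a3 averaged 367 ± 104 in TRAP and 207 ± 71.9 in the supernatant (0.83 ± 0.26, SE; adjusted p = 0.440), and Slc25a5 145 ± 46.4 and 84.8 ± 22.6 (0.75 ± 0.24, SE; adjusted p = 0.432). Both overlapped between fractions over the 12 libraries.

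Slc25a51 gave -1.85 ± 0.74 (SE; limma adjusted p = 0.601) over both times. Its unadjusted p was above 0.05 when replicate 3 of 9 a.m. TRAP, replicate 1 of 9 p.m. TRAP, replicate 3 of the 9 a.m. supernatant or replicate 2 of the 9 p.m. supernatant was left out. Slc25a4 and Ucp2 gave 0.30 ± 0.32 and 0.52 ± 0.27 (SE). Of 37 members limma called 0, against 0.108% of all genes (12 genes, or 6 with the same-numbered libraries as a block). An unadjusted p under 0.05 was found for 4 members, against 7.72%. The split was 20 higher and 17 lower (54.1% higher, against 43.2% of all genes), with a median of 0.19 beside -0.13 for all genes. Among the lower was Slc25a27, at 0 in every TRAP library, whose direction the filter fixed. Among the higher, Slc25a29 and Slc25a45, at means of 0.555 and 0.359 in the supernatant, passed only through TRAP, so their direction was fixed too. Markers of other cells were compared between fractions as well. Stroma stood at 5.97 to 21.9 summed FPKM over 6 markers in TRAP, against 31.5 to 89.3 in the supernatant, without overlap. Macrophage markers stood at 0 to 14.2 over 6 markers against 13.1 to 50.5, with a narrow overlap. Endothelial markers overlapped widely, at 0.0276 to 26.8 against 5.66 to 26.9, as did those of neurons and glia, at 3.30 to 76.2 against 22.7 to 82.3. In 9 p.m. TRAP, 4 of 6 macrophage and 4 of 6 endothelial markers were at 0, and none or 1 of each in a supernatant group. The part of these cells in the levels of Slc25a23 and Slc25a51 was not tested.

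**Figure D3:**
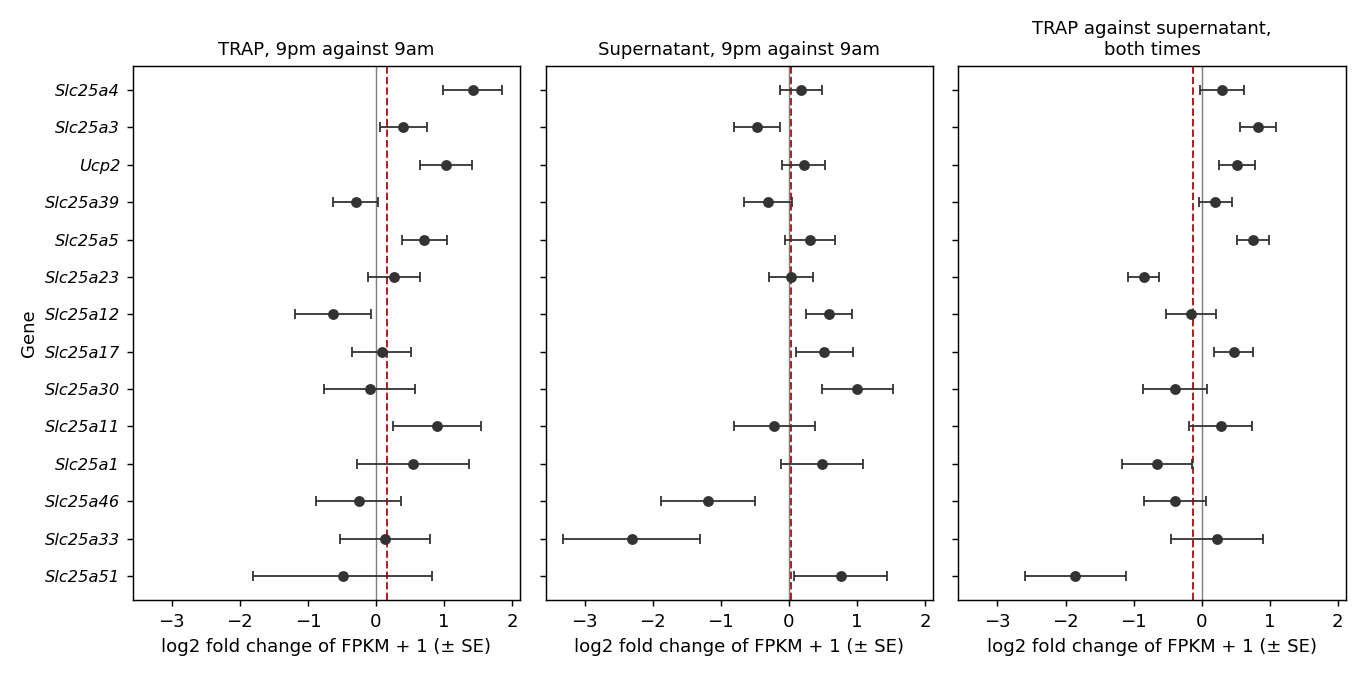
Log2 fold change of FPKM + 1 (points, with SE as bars) for the 12 most abundant members and for Slc25a33 and Slc25a51, in TRAP between times, in the supernatant between times, and between fractions over both times. The dashed line is the median of all genes tested (0.16, 0.03 and -0.13). Slc25a4 lies farthest to the right in the first panel, at 1.42, and Slc25a51 farthest to the left in the third, at -1.85.

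Ratios of 2 carriers within a library do not depend on the scaling of that library. The ratio of Slc25a4 to Slc25a5 was 3.30, 3.35 and 0.926 in 9 a.m. TRAP and 5.15, 3.33 and 2.62 in 9 p.m. TRAP. In the supernatant it was 3.47 to 4.34 at 9 a.m. and 3.41 to 4.11 at 9 p.m. Slc25a4 was thus the more abundant ADP/ATP carrier in 11 of 12 libraries, 9 a.m. TRAP replicate 3 being the exception, and the groups overlapped. The ratio of Slc25a3 to the sum of both was 0.691, 1.05 and 0.863 in 9 a.m. TRAP and 0.402, 0.469 and 0.650 in 9 p.m. TRAP, without overlap between the times. Slc25a4 and Slc25a5 were already without overlap in these libraries, so this ratio partly restates their values. In the supernatant it was 0.411 to 1.18 at 9 a.m. and 0.338 to 0.426 at 9 p.m., with overlap.

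None of the ratios was planned or tested, and a further pair was chosen after the values had been seen. Slc25a4 to Slc25a23 stood at 9.03, 7.96 and 6.65 in 9 p.m. TRAP, above 5.79, 4.94 and 1.52 in 9 a.m. TRAP and 1.93 to 2.94 in the supernatant. Ucp2 to Slc25a39 was 2.05, 2.26 and 1.25 in 9 p.m. TRAP and 0.614 to 0.889 in 9 a.m. TRAP, and 9 p.m. supernatant replicate 2, at 1.69, lay within the range of 9 p.m. TRAP. As a share of the FPKM of coding genes, the whole family held 0.604% to 0.690% in 9 p.m. TRAP, 0.419% to 0.601% in 9 a.m. TRAP and 0.456% to 0.570% in the supernatant.

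**Figure D4:**
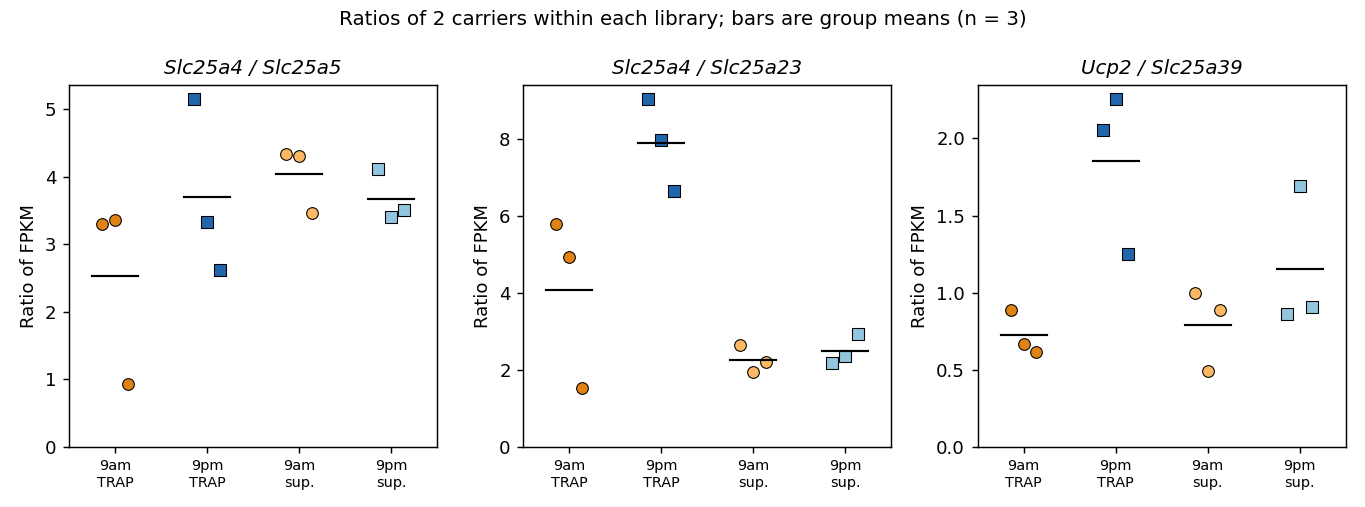
Ratio of FPKM of 2 carriers within each library (points, 3 per group) with the group mean (bar), for Slc25a4 to Slc25a5, Slc25a4 to Slc25a23 and Ucp2 to Slc25a39. The 9 p.m. TRAP points of the middle panel, at 6.65 to 9.03, lie above all other points, and in the left panel the groups overlap.

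Genes that act beside the carriers were read from 3 lists. Of the machinery that inserts carriers into the inner membrane, 11 of 12 listed genes could be tested, and limma called 0 in each of the 6 comparisons. The 1 with an unadjusted p under 0.05 was Timm8b, a small chaperone between the membranes, higher at 9 p.m. in the supernatant at 90.8 ± 60.6 against 23.5 ± 21.1 FPKM (SD, n = 3; limma adjusted p = 0.970). Tomm20, the outer membrane receptor, was at 22.3 to 28.2 FPKM on average in the 4 groups.

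Of 25 other mitochondrial membrane transporters in the table, 22 to 24 were tested per comparison and limma called 0, with 0 to 4 at an unadjusted p under 0.05. The highest counts were 4 of 22 between fractions at 9 a.m., beside 4.50% of all genes, and 4 of 24 over both times, beside 7.72%. Vdac1, the main pore of the outer membrane, averaged 182 ± 49.8 FPKM in the 6 TRAP libraries and 91.0 ± 23.5 in the 6 of unbound RNA (SD, n = 6), a log2 fold change of 0.98 ± 0.25 (SE; limma adjusted p = 0.246). Between times its log2 fold change was -0.08 ± 0.37 in TRAP and -0.04 ± 0.36 in unbound RNA (SE). Mtch1, a distant relative of the carriers in the outer membrane, stood at 385 ± 98.5 against 234 ± 82.2 (adjusted p = 0.548). Mpc2, a subunit of the pyruvate carrier, stood at 35.0 ± 22.2 against 10.3 ± 15.9 (adjusted p = 0.416). The other pore Vdac2 stood the other way round at 9 a.m., at 20.96 ± 24.3 in TRAP against 78.1 ± 34.3 (SD, n = 3; limma adjusted p = 0.886). Tspo, a cholesterol-binding protein of the outer membrane, stood in unbound RNA at 9.38 ± 8.74 in the morning and 56.3 ± 31.9 in the evening (SD, n = 3; limma adjusted p = 0.970).

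Of 12 enzymes of the malate-aspartate and carnitine shuttles all were tested and limma called 0, with 0 to 2 at an unadjusted p under 0.05, the latter for the interaction, beside 3.85% of all genes. Got2, the mitochondrial aspartate aminotransferase that works with Slc25a12, had 51.4 ± 11.4 FPKM in TRAP against 11.7 ± 14.8 in unbound RNA at 9 p.m. (SD, n = 3; limma adjusted p = 0.813). At 9 a.m. the order was the other way, at 24.0 ± 14.1 against 31.8 ± 10.1 (SD, n = 3), and the interaction of 3.27 ± 1.08 (SE) had a limma adjusted p of 0.988. Mdh2, the other enzyme at an unadjusted p under 0.05 for the interaction, gave 1.49 ± 0.68 (SE; limma adjusted p = 0.988). Cpt2, which works with the carnitine carrier Slc25a20, stood at 51.3 ± 4.87 at 9 p.m. and 23.5 ± 13.4 at 9 a.m. in TRAP (adjusted p = 0.941), without overlap. Slc25a20 itself had 27.9, 10.6 and 23.3 FPKM in morning TRAP against 1.65, 19.98 and 3.61 in evening TRAP, with overlap and a log2 fold change of -1.66 ± 0.94 (SE). Got2 and Mdh2 (209 ± 22.3 against 125 ± 70.2, SD, n = 3) were, like Cpt2, higher at 9 p.m. in TRAP without overlap. These 3 of 12 enzymes stand beside 8.63% of all genes. Acly, which uses the citrate exported by Slc25a1, stood at 41.9 ± 10.7 in TRAP and 22.8 ± 13.7 in the supernatant over both times (adjusted p = 0.551), whereas Slc25a1 was at 19.8 ± 12.3 and 29.1 ± 14.3 (adjusted p = 0.759).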

How the data were processed

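Per the methods, the authors aligned 50-nt single-end reads to mm10 with STAR 2.4.0, computed FPKM with Cuffquant and deposited these FPKM values. Neither the annotation release nor the strand setting is given in the sources used here. FPKM were not converted back to reads, depth is unknown and no counting interval is given. Of 24354 genes, 27 names turned into dates were left out. Names of 23289 (95.7%) and all 50 members matched GENCODE M21 on mm10.

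All genes with a mean FPKM above 1 were fitted on log2(FPKM + 1) by limma 3.58.1 (R 4.3.3) with an intensity trend and Benjamini-Hochberg adjustment over all genes tested. Fold changes on this scale understate those of weak genes. A gene was called where the adjusted p lay under 0.05 and the log2 fold change passed 0.4 (times) or 0.3 (fractions) in either direction. P-values measure the spread between pooled-mouse libraries. The labels give TRAP and supernatant libraries of one time and number the same animal number. Their deviations from group means correlated at -0.075 to -0.014, and a block by number was an alternative. Between times, animals differ.

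The members and lists were chosen with earlier results of these data known. Named were the 12 most abundant members, those with an unadjusted p under 0.05 or, above 5 FPKM, without overlap between groups, the Ucp genes and members at or under 1 FPKM by name or count. Others, such as Slc25a10, Slc25a20 and Slc25a40, were chosen after their values were seen. Sequences are from GENCODE M21 transcripts, with the longest reading frame as coding sequence.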

Additional observations from a re-analysis of the deposited data

How the results depend on the processing

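No member was called in any of the 6 comparisons under the alternatives tried for the pseudocount, filter, scaling, trend, robust variance, shared fit, replicate block or any 1 library left out. Log2 fold changes were recomputed under these alternatives for 22 pairs of member and comparison, some members standing in several. These were members above 5 FPKM without overlap or members at an unadjusted p under 0.05, and none reversed. Where groups do not overlap, leaving out 1 library cannot reverse the sign, so this outcome was largely fixed by the choice of pairs. The median log2 fold change of the members was less stable. Between fractions at 9 a.m. it was -0.30, but 0.11 with a filter at a mean FPKM above 5 (27 members in place of 34), and it ran from -0.36 to 0.048 with 1 library left out, the highest without 9 a.m. TRAP replicate 3. At 9 p.m. it was 0.21 and ran from -0.24 without 9 p.m. supernatant replicate 2 to 0.47. In the other comparisons it moved by less than the spread between replicates. With the replicate block, 0 members were called, and all genes called between fractions over both times went from 12 to 6 and for the interaction from 1 to 2. Same-numbered libraries of different times correlated at -0.007 to 0.104. Counts at an unadjusted p under 0.05 depended on the setting, with 0 members in TRAP between times and 2 between fractions at 9 p.m. without the intensity trend. Unknown depth limits the weak members most.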
